A study of Saccharomyces cerevisiae with 9 samples.

Results

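The probes for the alanine, glycine, proline, threonine and valine tRNAs were analysed on tRNA microarrays of budding yeast (Saccharomyces cerevisiae) depleted of Not1, the scaffold subunit of the Ccr4-Not complex. They were taken by name, as every probe called Ala, Gly, Pro, Thr or Val with a number and the ending y and without the prefix m, which gave 13 of the 64 tRNA probes. Of these probes, 2 are for alanine, 3 for glycine, 2 for proline, 3 for threonine and 3 for valine. The files do not pair a probe number with a codon or an anticodon, so each probe is called by its name here. Independently grown cultures gave 9 arrays, of which 3 measured charging in Not1 depleted cells and 3 in the wild-type, while the other 3 set the tRNA abundance of the strains against each other. The Not1 depleted strain, MY13523, is listed as MATa with the tagged allele not1::NOT1-AID-Myc6-NATMX4. The wild-type, MY13472, has no tag on Not1. Both carry the ADE2 and can1-100 alleles with trp1-1, HIS3,15 and the paired leu2 mutations 3 and 112, and both express OsTIR1, the plant F-box protein that auxin needs to trigger the degron, from the ADH1 promoter (ura3-1::pADH1-OsTIR1-URA3). By the sample records all cultures grew in YPD and received 1 mM auxin for 15 min, whereas the study's methods give ethanol, the solvent, for the control, and its strain list names another Not1 degron strain and MATα. How much Not1 was left in these cultures was not measured on the arrays.

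The genetic code groups codons in boxes that share their first bases, and for these amino acids the base at the third position does not change the amino acid. Isoacceptors, tRNAs of different anticodon that carry one amino acid, share the reading of such a box, and the enzyme for that amino acid, its aminoacyl-tRNA synthetase, charges them all. Only a charged tRNA can deliver its amino acid to the ribosome. In the yeast genome (RefSeq annotation, assembly R64) 83 nuclear tRNA genes carry these amino acids, with 13 anticodons. The number of anticodons was the same as the number of probes for each amino acid, 2 for alanine and proline and 3 for the others.

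The anticodon arms of the alanine, valine and proline tRNAs are shown because the alanine and valine probes differed most among isoacceptors and the proline tRNAs are the closest in sequence. Each is the spliced sequence on the tRNA's strand, in DNA letters, with 5 bases of stem on either side of the loop, from RefSeq R64, with the anticodon in capitals. All 10 Pro TGG genes are annotated with 2 exons, so their coordinates span an intron that is left out here, and the other genes shown have 1 exon.
Ala AGC, 11 genes, such as YNCD0004W at chrIV:410379-410451 (plus strand): ctcccttAGCatgggag
Ala TGC, 5 genes, such as YNCA0004W at chrI:166267-166339 (plus strand): cttccctTGCaaggaag
Val AAC, 14 genes, such as YNCE0023W at chrV:438700-438773 (plus strand): tctgcttAACacgcaga
Val CAC, 2 genes, such as YNCD0022C at chrIV:1075472-1075544 (minus strand): ttgccttCACacggcaa
Val TAC, 2 genes, such as YNCB0011C at chrII:326792-326865 (minus strand): tcgccttTACacggcga
Pro AGG, 2 genes, such as YNCC0004C at chrIII:123577-123648 (minus strand): ctcgcttAGGgtgcggg
Pro TGG, 10 genes, such as YNCA0002W at chrI:139152-139254 (plus strand): ctcgcttTGGgtgcgag
Over the whole spliced tRNA, the proline genes of different anticodon differed at 8 to 9 bases of 72 and the alanine genes at 14 of 73. The valine genes differed at 15 bases of 74 between CAC and TAC and at 23 to 25 between AAC and either of them. Whether a probe also binds the other isoacceptors was not tested.

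In the charging measurement, tRNA that had survived periodate, and so was charged, carried Cy3, and all tRNA of that culture carried Atto on the same array. The log2 ratio of Cy3 to Atto was scaled to tRNA standards made in vitro, and the charged fraction is that ratio as a percent of the standards. It is a relative level, and for the 13 probes it exceeded 100% in 11 of 39 values of Not1 depleted cells and 12 of 39 of the wild-type. The standards differed among themselves, with the human tRNASer3 standard lowest on all charging arrays. Before scaling, their log2 ratios ran from -0.27 to 3.43 on wild-type charging replicate 2 and from 0.24 to 2.23 on replicate 1. How far such offsets between probes enter the differences between tRNA probes was not tested. The value subtracted, the median of all lit standard spots of an array, was 0.79 on wild-type charging replicate 1 and 1.66 on replicate 3. The standards Ser3h, His1h, EcLys2 and EcTyr2 were at 0.24, 1.46, 2.20 and 2.23 on replicate 1. On replicate 3 they were at 0.23, 1.69, 2.42 and 2.32. Percentages shift between arrays with the value subtracted, whereas differences between probes within an array do not. Of the 12 or 18 spots of a probe, 10 to 18 were lit, and the median Atto intensity of a probe on an array lay between 196 for Val3y and 21915.5 for Val2y. All 13 probes were brighter than the 95th percentile of the blank spots in the Atto channel on 8 arrays. On wild-type charging replicate 1 only 1 of 13 was, since 35.2% of the blank spots were lit there, against 0% to 10.2% on the other arrays. Values without that array are given beside the charging changes scaled to the standards and beside the isoacceptor differences that did not overlap between the strains.

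Val1y was the valine probe that stood apart from its isoacceptors. It did so less on the arrays of Not1 depleted cells, a change that did not pass the threshold. Its charged fraction was 95.1%, 64.3% and 82.4% in Not1 depleted cells (80.6% ± 15.5, SD, n = 3), against 59.4%, 69.5% and 27.3% in the wild-type (52.1% ± 22.0, SD, n = 3). Val2y was at 151%, 84.3% and 123% in Not1 depleted cells, against 117%, 155% and 62.5% in the wild-type. Val3y was at 132%, 68.9% and 95.8% in Not1 depleted cells, against 118%, 137% and 51.2% in the wild-type. The strains overlapped for each of the 3 probes, and all 3 moved together from array to array.

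Within each array, Val2y was above Val1y on 6 of 6 arrays, on average 1.78-fold (log2 difference 0.83 ± 0.33, SD, n = 6 arrays). The difference was 0.67, 0.39 and 0.57 on the arrays of Not1 depleted cells, against 0.98, 1.16 and 1.19 on those of the wild-type. Val3y was also above Val1y on 6 of 6 arrays, by 0.47, 0.10 and 0.22 on the log2 scale in Not1 depleted cells and by 0.99, 0.98 and 0.91 in the wild-type. Neither set of differences overlapped between the strains. The gap was smaller in Not1 depleted cells by 0.56 on the log2 scale for Val2y over Val1y (0.55 ± 0.14 in Not1 depleted cells and 1.11 ± 0.12 in the wild-type, SD, n = 3 each). For Val3y over Val1y it was smaller by 0.70 (0.26 ± 0.19 and 0.96 ± 0.05 in the same order). The exact two-sided permutation p was 0.1 for both, the smallest that 3 arrays against 3 allow, and 0.275 after adjustment over the 11 isoacceptor pairs. Without wild-type charging replicate 1 the changes were -0.63 and -0.68. Val3y against Val2y was lower on 5 of 6 arrays, by -0.22 on average (exact sign-flip test, p = 0.0625, adjusted p = 0.0982).

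Val1y was also set against the median of all 64 probes on its array, which uses the same Val1y values and is not a separate measurement. On the log2 scale it lay at -0.10, -0.01 and 0.09 in Not1 depleted cells, against -0.84, -0.51 and -0.92 in the wild-type. The 2 strains did not overlap, which held for 1 of the 13 probes and for 9.38% of all 64. With the arrays scaled to this median in place of the standards, the log2 change of Val1y was 0.75 with a standard error of 0.21, and it did not pass the threshold (limma, unadjusted p = 0.00344, adjusted p = 0.220). With the standards as scale it was 0.72 with a standard error of 0.47 and a 95% confidence interval of -0.20 to 1.64 (limma, adjusted p = 0.994). By charged fraction Val1y was at rank 37, 33 and 26 of 64 in Not1 depleted cells, against rank 50, 47 and 56 in the wild-type.

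The alanine probes had the largest mean difference of the 11 isoacceptor pairs over all 6 charging arrays, although in the wild-type both Val2y and Val3y lay further above Val1y (by 1.11 and 0.96 on the log2 scale) than Ala2y above Ala1y (0.87). Ala2y was at 194%, 79.4% and 115% in Not1 depleted cells (129% ± 58.6, SD, n = 3), against 123%, 155% and 54.9% in the wild-type (111% ± 51.0, SD, n = 3). Ala1y was at 48.0%, 38.3% and 70.0% in Not1 depleted cells (52.1% ± 16.3), against 80.9%, 50.3% and 42.4% in the wild-type (57.8% ± 20.3). Ala2y was above Ala1y on 6 of 6 arrays, on average 2.09-fold and between 1.30-fold and 4.03-fold on single arrays. The log2 difference was 2.01, 1.05 and 0.71 in Not1 depleted cells, against 0.60, 1.62 and 0.37 in the wild-type, so that the strains overlapped (change 0.39, exact permutation test, two-sided p = 0.5, and 0.26 without wild-type charging replicate 1). Among all 64 probes, Ala2y ranked between 8 and 28 on the 6 arrays and Ala1y between 36 and 61.

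The threonine probes kept one order on every charging array, with Thr3y above Thr2y and Thr2y above Thr1y. Thr3y was at 78.3%, 41.5% and 54.2% in Not1 depleted cells, against 61.6%, 71.3% and 28.7% in the wild-type. Thr1y was at 56.7%, 33.0% and 42.7% in Not1 depleted cells, against 42.5%, 53.5% and 21.1% in the wild-type. Thr2y ranged between 34.4% and 66.5% in Not1 depleted cells and between 25.4% and 65.1% in the wild-type. The strains overlapped for all 3 probes. Thr3y lay 0.42 ± 0.08 above Thr1y on the log2 scale (SD, n = 6 arrays), a 1.34-fold difference that ranged only between 1.26-fold and 1.45-fold, although Thr1y itself varied between 21.1% and 56.7%. Thr2y lay between them, 0.23 ± 0.10 above Thr1y and 0.20 ± 0.05 below Thr3y. The difference of Thr2y over Thr1y was 0.23, 0.06 and 0.17 in Not1 depleted cells, against 0.36, 0.28 and 0.27 in the wild-type, and did not overlap between the strains (change -0.15, exact permutation test, two-sided p = 0.1, adjusted p = 0.275, and -0.12 without wild-type charging replicate 1). That of Thr3y over Thr1y changed by -0.09 with overlapping arrays (p = 0.3 in the same exact test, and -0.05 without wild-type charging replicate 1).

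The glycine probes were among the most charged. Gly1y was at 237%, 90.4% and 124% in Not1 depleted cells (150% ± 76.6, SD, n = 3), against 132%, 158% and 52.4% in the wild-type (114% ± 55.3). Gly3y was at 168%, 74.8% and 103% in Not1 depleted cells (115% ± 47.9), against 139%, 167% and 60.7% in the wild-type (122% ± 55.2). Gly2y ranged between 64.1% and 183% in Not1 depleted cells and between 58.2% and 152% in the wild-type. Gly1y had the highest charged fraction of the 13 probes on all 3 arrays of Not1 depleted cells, whereas Gly3y or Val2y was highest on those of the wild-type. Gly3y against Gly1y was at -0.49, -0.27 and -0.27 on the log2 scale in Not1 depleted cells, against 0.07, 0.08 and 0.21 in the wild-type. All arrays of one strain thus lay below 0 and all of the other above it, a change of -0.47 (exact permutation test, two-sided p = 0.1, adjusted p = 0.275, and -0.49 without wild-type charging replicate 1). The spots of Gly1y had an SD of 0.37, 0.33 and 0.38 on the log2 scale on the wild-type arrays, and those of Gly3y 0.31, 0.12 and 0.17. In Not1 depleted cells the SD was 0.15, 0.41 and 0.07 for Gly1y and 0.13, 0.18 and 0.11 for Gly3y. Over all 6 arrays the glycine probes did not keep one order, and Gly2y averaged -0.18 ± 0.23 against Gly1y (SD, n = 6 arrays, exact sign-flip test, p = 0.125, adjusted p = 0.172).

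The proline probes were among the least charged and did not differ in one direction. Pro1y was at 63.8%, 32.6% and 35.2% in Not1 depleted cells (43.9% ± 17.3, SD, n = 3), against 53.6%, 62.8% and 27.0% in the wild-type (47.8% ± 18.5). Pro2y was at 85.5%, 32.5% and 33.5% in Not1 depleted cells (50.5% ± 30.3), against 35.4%, 71.2% and 25.1% in the wild-type (43.9% ± 24.2). Pro2y was above Pro1y on 2 arrays and below it on 4, with a mean log2 difference of -0.03 ± 0.34 (SD, n = 6 arrays, exact sign-flip test, p = 0.812). On wild-type charging replicate 1, Pro2y was lower by -0.60, the largest difference of this pair, and without that array the mean was 0.084.

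Over the 11 isoacceptor pairs, 6 kept one sign on all 6 charging arrays, namely Ala2y over Ala1y, Val2y and Val3y over Val1y, and the 3 threonine pairs. This share, 54.5%, compares with 55.2% of the 2016 pairs that can be made of all 64 probes and 33.3% of the 18 isoacceptor pairs of the other unprefixed yeast probes. Each of the 6 had p = 0.03125 in the exact two-sided sign-flip test, the smallest that 6 arrays allow, and an adjusted p of 0.0573 over the 11 pairs. Thus 0 of 11 passed the threshold of 0.05 and 6 of 11 were at an unadjusted p under 0.05. With only 6 of 11 pairs at this smallest p, no adjusted p could be under 0.05. The strains did not overlap for 4 of 11 pairs (36.4%), against 10.1% of the 2016 pairs and 11.1% of the other isoacceptor pairs. Val1y is part of 2 of these 4 pairs, so they are not separate measurements. In Not1 depleted cells the gap was smaller for both valine pairs and for Thr2y over Thr1y. Gly3y lay below Gly1y on all arrays of Not1 depleted cells and above it on all of the wild-type. With the median of the repeated spots, or with plain background subtraction, the wild-type arrays fell on both sides of 0.

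Across the arrays 12 of the 13 probes fell into a high and a low set, grouped here after their values were seen, while Val1y ranked between 26 and 56 of 64 and spanned both. Gly1y, Gly2y, Gly3y, Ala2y, Val2y and Val3y ranked between 1 and 34 of all 64 probes on each of the 6 charging arrays. Pro1y, Pro2y, Thr1y, Thr2y, Thr3y and Ala1y ranked between 36 and 62. Averaged over the probes of one amino acid, glycine was at 128% ± 60.4 in Not1 depleted cells and 115% ± 52.5 in the wild-type (SD, n = 3 each). Valine was at 98.2% ± 25.9 and 84.0% ± 35.8 in the same order, and alanine at 80.4% ± 22.2 and 78.7% ± 27.0. Threonine was at 50.3% ± 15.4 in Not1 depleted cells and 46.6% ± 19.6 in the wild-type, and proline at 46.9% ± 23.4 and 45.5% ± 20.5. In the order of the 13 probes within a strain, 4 of 12 neighbouring pairs differed by more than the SD of their difference in Not1 depleted cells and 4 of 12 in the wild-type. The Spearman correlation of the order was 0.725 to 0.918 between arrays of different strains and 0.791 to 0.962 between arrays of one strain, over 13 probes that share the scale of their array.

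Between the strains, no probe passed the threshold in charged fraction. In limma, with p-values adjusted over the 64 probes by Benjamini-Hochberg, 0 of 13 changed (0% of all probes), and 0 of 13 were at an unadjusted p under 0.05. The log2 changes were 0.25 for Ala2y, -0.14 for Ala1y, 0.42 for Gly1y, 0.12 for Gly2y, -0.04 for Gly3y, -0.10 for Pro1y and 0.19 for Pro2y. They were 0.25 for Thr1y, 0.10 for Thr2y, 0.16 for Thr3y, 0.15 for Val2y and 0.02 for Val3y, each with a standard error of 0.47. The changes were above 0 for 10 of 13 probes, with a median of 0.15, against -0.02 for the 25 other unprefixed probes and 0.003 for all 64. Leaving out single arrays moved this median between -0.24, without wild-type charging replicate 3, and 0.41, without wild-type charging replicate 2. Without wild-type charging replicate 1 it was 0.24, and the changes of Ala1y (0.13), Gly3y (0.11) and Pro1y (0.02) were above 0, with Val1y at 0.87. With plain background subtraction the median of the 13 was -0.27, while that of all probes was -0.46, and 12 of the 13 changes were below 0, all but that of Val1y.

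On the abundance arrays, tRNA from Not1 depleted cells carried Cy3 and tRNA from the wild-type carried Atto. No array had the dyes exchanged, so dye and strain cannot be told apart. Before scaling, the log2 ratios of the standards ran from -0.30 to 0.30 on abundance replicate 1 and from 0.62 to 1.91 on replicate 2. On replicate 3 they ran from -1.65 to 0.67. The level of 0 rests on the median of these standards. Pro2y had the lowest mean of all 64 probes, with log2 ratios of -2.76, -0.49 and -1.29 (mean -1.51 ± 1.15, SD, n = 3 arrays). The limma standard error was 0.58 for every probe, since the fit pooled the variance over all 64. Pro1y was at -2.56, -0.51 and -0.82, and Val1y at -2.31, -0.32 and -1.12. These were below 0 on every array, as were Ala1y at -2.21, -0.10 and -0.19 and Val2y at -2.11, -0.10 and -1.26. The other 8 probes were above 0 on abundance replicate 2, between 0.20 for Ala2y and 0.33 for Thr3y, and below 0 on the others. The means of all 13 were between -1.51 and -0.83, with a median of -1.07, against -1.05 for the other unprefixed probes and -0.90 for all 64.

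None of the 13 passed the threshold in abundance (limma, adjusted p between 0.209 and 0.262, 0% of all 64 probes). At an unadjusted p under 0.05 in this fit, 6 of 13 were lower, namely Ala2y, Gly2y, Pro1y, Pro2y, Val1y and Val2y. So were 6 of the 25 other unprefixed probes and 13 of 64. These p-values take probes as independent, while whole arrays can shift. Without abundance replicate 2, 10 of 13 were lower past the threshold, where 23 of all 64 passed it. The median was then -1.69 for the 13 and -1.22 for all 64. Without replicate 1 it was -0.43 for the 13 and -0.38 for all 64, with 0 of 13 and 0 of 64 past the threshold. A mean below 0 was found for 58 of 64 probes. With the arrays scaled to the median of all probes in place of the standards, the median of the 13 was -0.26 and that of all 64 was -0.09. All 64 include the probes with the prefix m, and no median of the 25 other unprefixed probes was taken in these settings. With the standards as scale and all arrays kept, the median of those 25 was -1.05, against -1.07 for the 13. Against the median probe of each array, Pro2y remained low, at -0.90, -0.50 and -0.71, and was the only probe of 64 among the lowest 13 on all 3 arrays. Val1y lay at -0.45, -0.33 and -0.54. Pro1y, Pro2y, Val1y and Val2y were below the array median on all 3 arrays. These were 4 of 13, close to the share of the other unprefixed probes (8 of 25), against 18.8% of all 64. None of the 4 passed the threshold on this scale (limma, adjusted p = 0.213 for Pro2y, 0.354 for Pro1y, 0.399 for Val1y and 0.468 for Val2y).

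In abundance ratio the alanine probes kept no common order, while Val3y was the highest of the valine probes on each array. Ala2y against Ala1y was at -0.21, 0.30 and -1.10 on the log2 scale. Val3y was above Val1y by 0.33, 0.55 and 0.23 and above Val2y by 0.13, 0.33 and 0.37. The mean of the differences from Val2y was 0.28, with 0.13 for the median of the repeated spots in place of their mean and 0.18 with plain background subtraction. On abundance replicate 3 the Cy3 signal of Val3y was only 2.39 times its background, against 13.2 times for Val2y. The spots of Val3y had an SD of 0.64 on the log2 scale on abundance replicate 2, where 1 of 18 was saturated. Gly3y was above Gly2y, and Thr3y above Thr2y, on 3 of 3 arrays, by means of 0.23 and 0.13 (0.13 and 0.12 with plain background subtraction). Gly3y and Thr3y were also dim in Cy3 on abundance replicate 3, at 2.93 and 3.41 times their background. In all, 6 of 11 pairs kept one sign on the 3 arrays, against 36.7% of the 2016 pairs of all probes. The exact sign-flip test over 3 arrays cannot give a p under 0.25.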

How the data were processed

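The deposited tables hold, for each spot of 12 blocks of 11 rows and 11 columns, foreground and background fluorescence intensity in both dyes, as given by the authors' image software and not normalized. By the methods, the authors used spike-in standards and in-house code for normalization, a step that the deposited intensity values do not contain. Names in block rows 5 to 8 stood 1 row above their spots and were moved, with row 5 left out. Over the repeated positions of the 13 probes this lowered the SD of the log2 ratio, averaged over the 9 arrays, to 0.060, against 0.677 with the deposited names.

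Background was corrected with normexp (offset 50) in limma 3.58.1 under R 4.3.3. Spots with under 50% of pixels more than 2 SD above background in both channels were left out. Log2 (Cy3/Atto) was averaged over the spots of a probe after subtraction of the standards' median (Ser3h, His1h, EcLys2 and EcTyr2). Strains were compared with lmFit and eBayes on all 64 probes at a threshold of 0.05 after Benjamini-Hochberg adjustment, and the abundance ratio was set against 0. The fit takes probes as independent, while whole arrays can shift. Isoacceptors were compared within arrays by exact sign-flip tests, two-sided, and strains by exact permutation tests, adjusted over 11 pairs. tRNA genes and anticodons were read from the RefSeq R64 genome with Python 3.11.15, and the anticodons matched 16 of 16 annotated ones. All 13 probes and all their isoacceptor pairs were named by rule. The members and lists were chosen with earlier results of these data known. Labels share replicate numbers across strains, but cultures were grown independently, and their deviations from the strain means correlated at 0.09, -0.61 and -0.06 over probes, so they were not paired. The alternatives were plain background subtraction, scaling to all probes, standards without Ser3h, the median of spots and all spots kept. Further ones were dim probes under 2 times the background in Atto left out, the replicate block, and each array left out. Arrays have no read depth, and precision is limited by their number and by the scale. The standard error of the charging changes was 0.47 with the standards as scale. It was between 0.21 for Val1y and 0.31 for Pro2y with the median of all probes as scale.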

Additional observations from a re-analysis of the deposited data

Results flagged for a closer look

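The log2 charged fraction of Gly3y minus that of Gly1y had opposite signs in the 2 strains. It was below 0 on all 3 arrays of Not1 depleted cells and above 0 on all 3 of the wild-type, a log2 change of -0.47. The exact permutation p of 0.1 is the smallest that 3 arrays against 3 allow, so this difference could not pass the threshold. With the median of the repeated spots the change was -0.34 and the sign of 1 strain was no longer common to its arrays, since the wild-type lay between -0.05 and 0.14 and the Not1 depleted cells between -0.52 and -0.16. With plain background subtraction the wild-type lay between -0.01 and 0.23.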

How the results depend on the processing

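Where a result changed, the cause was not tested. With plain background subtraction the charging change turned below 0 for Ala2y (-0.16), Gly1y (-0.022), Gly2y (-0.33), Pro2y (-0.26), Thr1y (-0.22), Thr2y (-0.37), Thr3y (-0.27), Val2y (-0.27) and Val3y (-0.37), at adjusted p between 0.456 and 0.964, and 4 probes passed the threshold, none of the 13. The change of Gly3y turned to 0.059 without Ser3h and to 0.020 with the median of spots, where Gly3y against Gly2y was -0.019. With all spots kept, 7 of 11 isoacceptor pairs passed the threshold (exact sign-flip test, adjusted p = 0.049), against 0 in the reported setting. In that setting Val3y against Val2y also reached the smallest p of the test, and 1 more pair at that p lowers the adjusted p of them all. The replicate block gave 0 of 13 and 0 of 64 probes past the threshold and changed no call.

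Leaving out single arrays gave 0 to 10 of the 13 probes and 0 to 23 of all 64 lower in abundance, the higher counts without abundance replicate 2. The charging changes then ranged between -0.38 and 0.13 for Ala1y, -0.19 and 0.56 for Ala2y, -0.065 and 0.73 for Gly1y, -0.28 and 0.51 for Gly2y, -0.48 and 0.25 for Gly3y, -0.47 and 0.14 for Pro1y and -0.27 and 0.60 for Pro2y. They ranged between -0.15 and 0.53 for Thr1y, -0.31 and 0.37 for Thr2y, -0.24 and 0.41 for Thr3y, -0.22 and 0.44 for Val2y and -0.42 and 0.30 for Val3y, while Val1y stayed between 0.31 and 0.98. Pro2y against Pro1y ranged between -0.12 and 0.084. With 5 arrays a sign-flip p cannot be under 0.0625, so no pair could pass. The means of all 13 probes on the abundance arrays were below 0 under every alternative run, but scaled to the median of all probes they came close to 0 for Ala1y (-0.026), Thr3y (-0.057) and Val3y (-0.069).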
